A study of Mus musculus with 24 samples.

Results

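Powdered propagules of Japanese yam, the small aerial tubers of this vine, were added to a high-fat diet, and the liver RNA of the mice that ate it was compared with that of mice on the high-fat diet alone. The comparison takes in 12 of the 24 columns of deposited array values, 6 mice per group, chosen by their titles because these 12 arrays were processed together. All 34958 probe sets annotated to a single gene symbol, of 45101 in all, were tested, and they stand for 18194 genes.

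The mice were male C57BL6J. The HF group ate a diet labelled 45% high-fat and the HF+P group ate that diet with 5% propagule powder, both for 4 weeks, and all were fasted for 16 h before the liver was taken. A low-fat group (LF) of 6 mice is used below only to place the HF level, with the same HF arrays processed a second time. The labels carry mouse numbers and no litter, cage or batch, so each array is 1 mouse, and no transgene or deletion was involved. Since HF mice serve in both comparisons, the values of HF against LF and of HF+P against HF are set side by side only, and no relation between them was tested.

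A liver after an overnight fast makes glucose from amino acids and glycerol and burns fatty acids, programmes driven by glucagon, glucocorticoids and the receptor PPAR-alpha. Cholesterol synthesis is governed by the transcription factor SREBP-2, which is released when sterols in the endoplasmic reticulum run low. Resident macrophages, the Kupffer cells, and the hepatocytes' own acute phase proteins carry the liver's inflammatory response.

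The deposited values lie on a scale like that of log2 array intensities, but they hardly differ between arrays: the median probe set had an SD of 4.40e-06 across the 12 columns, and only 369 probe sets (1.06%) exceeded 0.001. A difference is therefore given relative to the spread within the groups and not as a fold change. The standardized difference is the HF+P mean minus the HF mean, in units of the SD pooled over both groups and corrected for small samples after Hedges; the range in parentheses is its 95% interval. Values of single mice are distances from the HF mean in the same pooled SDs. Over all genes the median standardized difference was 0.02, with 51.5% of genes higher in HF+P. That midpoint moved to 0.33, with 72.4% higher, when each column was centred on its median, and to 0.19 with 58.3% higher after quantile normalisation, so a list's median is read against these. Hepatocyte markers such as albumin were at the top of the range, with mean levels from 11.9 to 14.9 against a column median of 6.85. The 64 control probe sets of the array lay between -1.03 and 0.61, and 0 of them had an unadjusted p below 0.05 in limma.

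1 gene was called. Serpinb6b, a clade B serine protease inhibitor, rose in HF+P livers. In HF mice its values ran from -1.47 through a median of -0.01 to 1.72, and in HF+P mice from 5.62 through 6.41 to 7.45. The groups did not overlap, and the gap between them was wider than the whole HF range. The standardized difference was 5.96 (3.17 to 8.71, n = 6 per group; limma with Benjamini-Hochberg adjustment, adjusted p = 0.00735). It was the only call among 34958 probe sets (0.00286%), where 2487 (7.11%) had an unadjusted p below 0.05, 1430 higher (4.09%) and 1057 lower (3.02%), and 1748 would by chance. With 1 probe set per gene, 1279 of 18194 genes did (7.03%), 759 higher (4.17%) and 520 lower (2.86%).

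The scale of this change is small in the deposited values. The mean level was 6.975, the difference was 0.000509 and the pooled SD 7.88e-05, and the gene's only probe set shifted by at most 12 rank places among the probe sets of an array. The call did not hold after quantile normalisation, where the standardized difference was 4.48 (limma, adjusted p = 0.0977). In the arrays processed with LF, the same gene was lower in HF than in LF, at -3.05 (-4.70 to -1.34), and the 6 HF mice kept the same order from lowest to highest in both sets of values (mice 1, 4, 2, 3, 5 and 8). Both sets come from the same HF arrays, so the shared order is not a separate observation.

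**Figure D1:**
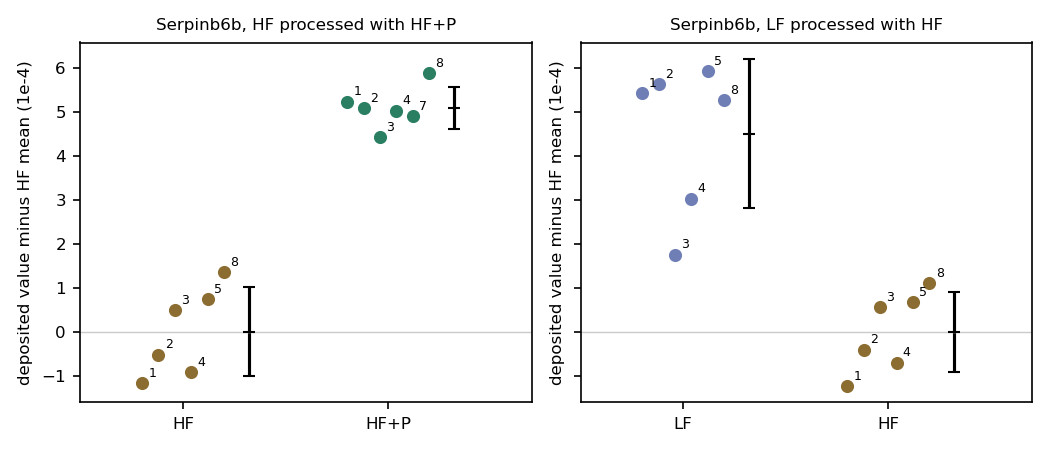
Serpinb6b in each mouse, as the deposited value minus the HF mean of its own value set, in units of 1e-4, with mouse numbers; bars are mean and SD of 6 mice. The 6 HF+P mice stand from 4.43 to 5.87 above the HF mean (left), and the 6 LF mice from 1.75 to 5.92 above it (right).

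Clade B serpins inhibit proteases inside cells, among them those of leukocyte granules. Of 18 measured members 5 were higher and 13 lower in HF+P, with a median of -0.14 that turned to 0.14 after median centring and 0.44 after quantile normalisation. Serpinb1a, an inhibitor of neutrophil proteases, ran from -0.75 to 0.82 in HF (median -0.15) and from -0.15 to 3.24 in HF+P (median 1.28), with 5 HF+P mice above every HF mouse, at 1.42 (0.18 to 2.61; limma, adjusted p = 0.617). Serpinb6c, a close relative of the called gene, lay in the other direction at -1.41 (-2.59 to -0.17; adjusted p = 0.626), with HF+P values from -2.61 to -0.35 overlapping the HF values. After quantile normalisation it was at 0.76, so scaling decides its sign.

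Probe sets next in order of p did not pass. Akip1, which encodes an A-kinase interacting protein, ran from -1.81 through -0.20 to 2.27 in HF and from 3.49 through 3.98 to 4.45 in HF+P. The groups did not overlap, and HF mouse 2 was the highest of its group. Its standardized difference was 3.62 (1.71 to 5.47; limma, adjusted p = 0.356). Without HF mouse 2 it was 6.13 and was called (limma, adjusted p = 0.0195). With each mouse left out in turn it ran from 3.365 to 6.13. Slc39a14, the zinc and iron importer ZIP14 that is known to be induced in the acute phase, was lower in 3 of 4 probe sets, at -3.41, -3.13 and -0.66, with the fourth at 0.02. The first of these was called without HF+P mouse 8 (-5.17; limma, adjusted p = 0.0458). The brightest of its probe sets, which stands for the gene in the lists, was the one at -0.66.

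Groups that do not overlap were found for 129 of 34958 probe sets (0.369%), 58 higher (0.166%) and 71 lower (0.203%). Among the genes of widest spread (SD of the 12 columns over 9.16e-06), the 8 highest and the 8 lowest standardized differences were taken as a description, and of these 16 only Serpinb6b passed. That SD includes the difference between the groups, so a gene can enter through the difference itself. Pls1, Klhdc2, Igf1, Tmem243, Tafa2 and Hspa12b had pooled within-group SDs from 5.13e-06 to 8.88e-06, under the cutoff. Their large standardized differences are thus partly a product of the selection. Peg3, a zinc finger gene expressed from the paternal allele, ran from -0.92 to 1.08 in HF and from 2.02 to 4.94 in HF+P, without overlap, at 2.98 (1.30 to 4.61; limma, adjusted p = 0.412). It was higher in 4 of its 5 probe sets and kept its size under quantile normalisation, at 2.96. In HF against LF it was at -2.36 (-3.79 to -0.87).

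The other genes on the high side were Tmem243 at 2.48, Hspa12b, an endothelial relative of the HSP70 chaperones, at 2.45, Golm2, a Golgi membrane protein, at 2.35, Capn2, the catalytic subunit of a calcium-dependent protease, at 2.33, and Klhdc2, a substrate receptor of a ubiquitin ligase, also at 2.33. In Golm2 the HF mice lay within -0.40 and 0.32 and the HF+P mice between 0.90 and 4.14. Tmem243 and Hspa12b changed sign after quantile normalisation (-0.53 and -0.42), so scaling decides their sign. Golm2 was then at 1.95, Capn2 at 0.53 and Klhdc2 at 0.43, and Akip1 at 2.09. The other probe sets of Klhdc2 were at 1.18, 1.10 and 0.13.

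On the low side stood Igf1, the growth-hormone-dependent growth factor that the liver secretes. It ran from -0.72 through -0.32 to 1.12 in HF and from -4.15 through -2.31 to -1.28 in HF+P, so that the groups did not overlap. The standardized difference was -2.24 (-3.63 to -0.79; limma, adjusted p = 0.452) in the brightest of its 4 probe sets. The deposited difference there was -1.52e-05, and this probe set kept the same rank on all 12 arrays. It could therefore not be tested after quantile normalisation. The other probe sets of Igf1 were at -1.11, -0.03 and 0.06, so the probe sets disagree. Against LF, the HF mice had stood at 3.82 (1.84 to 5.74).

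Pls1, an actin-bundling plastin, had the lowest value of these genes at -2.81 (-4.39 to -1.18), with HF mice from -0.83 to 0.81 and HF+P mice from -4.74 to -1.41. After quantile normalisation it was at -0.85. Gstp3, a pi-class glutathione transferase, was at -2.22, again without overlap between the groups, but at -0.04 after quantile normalisation. Gna14, a G protein alpha subunit, was at -2.24, and at -1.70 after quantile normalisation, with its other probe sets at -1.31 and -1.37. Tafa2, a secreted chemokine-like protein, was at -2.25 and Hoxb5os at -2.21 (-0.56 and -0.48 after quantile normalisation), and Akr1c20, an aldo-keto reductase with 1 of 2 probe sets lower, at -2.17. Mmd2, at -2.51 with its other probe sets at -2.21 and -0.18, turned to 0.84 after quantile normalisation. The adjusted p of these 15 uncalled genes lay between 0.356 and 0.452.

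**Figure D2:**
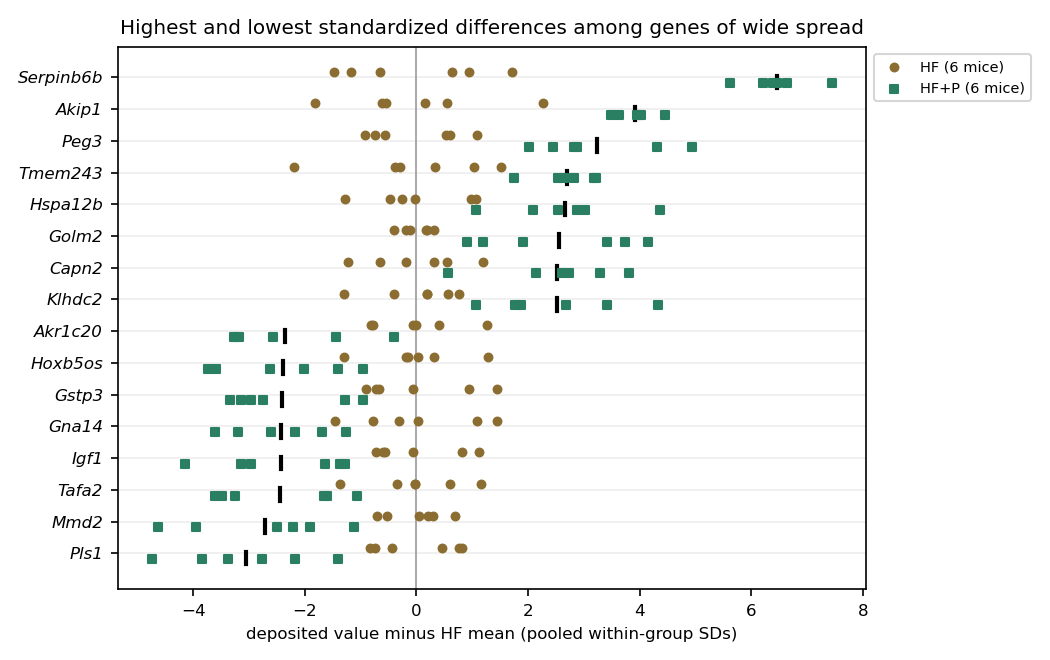
Values of each mouse for the 8 genes with the highest and the 8 with the lowest standardized difference among genes of wide spread, in pooled SDs from the HF mean; circles are HF mice, squares HF+P mice and vertical bars HF+P means. Serpinb6b is the gene with the widest gap between the groups, and Capn2 and Akr1c20 are among those whose groups overlap.

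The enzymes of cholesterol synthesis all had a lower mean in HF+P: 17 of 17 measured members of 20 listed, where 48.5% of all genes were lower. The limma test called 0 of them. Their median was -0.68, and 3 of 17 had an unadjusted p below 0.05 (limma), beside 2.86% of all genes on the low side: Fdft1, Sc5d and Nsdhl. After median centring 16 of 17 were lower, Ebp turning to 0.32, and after quantile normalisation, of the 16 that could be tested 9 were lower, Hmgcs1 was at 0 (within 1e-06) and 6 were higher, namely Mvk, Pmvk, Lss, Tm7sf2, Hsd17b7 and Sc5d, with a median of -0.25. These genes had been well above the LF level in HF livers, with a median of 3.96 in that comparison.

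Promoters of 2 members of this list are shown because its members lay on the same side and SREBP-2 with the CCAAT-binding factor NF-Y is known to drive them: Hmgcs1, HMG-CoA synthase, and Idi1. Both are from RefSeq on GRCm38.p6, plus strand, at chr13:119690101-119690400 and chr13:8885356-8885655, from 250 bases before to 50 after the start. Capitals mark matches on either strand to CCAAT (read as ATTGG on the other strand) and to a sterol regulatory element, TCACNCCAC, which do not overlap here.
Hmgcs1: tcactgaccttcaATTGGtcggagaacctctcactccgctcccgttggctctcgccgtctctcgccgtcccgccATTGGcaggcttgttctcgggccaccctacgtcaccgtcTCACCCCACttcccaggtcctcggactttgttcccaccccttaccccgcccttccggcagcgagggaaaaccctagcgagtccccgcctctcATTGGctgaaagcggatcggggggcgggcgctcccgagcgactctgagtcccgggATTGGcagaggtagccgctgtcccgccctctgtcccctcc
Idi1: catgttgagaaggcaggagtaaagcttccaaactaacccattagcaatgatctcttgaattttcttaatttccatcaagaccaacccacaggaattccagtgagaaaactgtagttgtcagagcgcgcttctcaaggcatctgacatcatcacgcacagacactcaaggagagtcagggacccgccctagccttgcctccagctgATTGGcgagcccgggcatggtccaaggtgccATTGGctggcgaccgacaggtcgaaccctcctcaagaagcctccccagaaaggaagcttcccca
The Hmgcs1 promoter holds 4 CCAAT matches and 1 sterol element match, and that of Idi1 holds 2 CCAAT matches. Of the 17 promoters found for 14 members, 14 held CCAAT, at least 1 for each of the 14 members, against 37.4% of all 32851 promoters of this length. The sterol element was in 1 of 17, that of Hmgcs1, against 1.24% of all promoters. Hmgcs1, at -0.07, was also the member closest to 0, so the 2 promoters shown do not stand for the list. For Fdps, Fdft1 and Sqle no promoter was found. Matches are a description of letters only.

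Along the mevalonate part of the pathway the values were modest. Hmgcs1 was at -0.07 (-1.11 to 0.97), with HF+P mice from -1.46 to 0.80 inside the HF range of -1.72 to 1.19. The kinases Mvk and Pmvk were at -0.58 and -0.29 and the decarboxylase Mvd at -0.43. Idi1, which isomerises isopentenyl diphosphate, was at -0.75, with HF from -0.82 to 0.81 and HF+P from -2.63 to 0.64, and Fdps, farnesyl diphosphate synthase, at -0.77, with its second probe set of the opposite sign.

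Fdft1, squalene synthase, the first enzyme committed to sterols, had the lowest value. It ran from -0.80 through 0.09 to 0.40 in HF and from -3.75 through -1.70 to -0.32 in HF+P, and 4 of the HF+P values were under the whole HF range. The standardized difference was -1.62 (-2.85 to -0.34; limma, adjusted p = 0.55). Its value in HF against LF was 3.84 (1.86 to 5.78). Its other probe sets were at -1.52, -0.37 and 0.55.

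Squalene epoxidase, Sqle, was at -0.97 and the cyclase Lss at -0.63. Of the enzymes that trim lanosterol to cholesterol, Nsdhl was at -1.17 (-2.31 to 0.01) and Sc5d at -1.20 (-2.34 to -0.01). Sc5d turned to 1.69 after quantile normalisation and Nsdhl was then at -0.18. The other probe sets of Sc5d were at -0.13 and -0.23. Tm7sf2 was at -0.99, Cyp51 at -0.91, Msmo1 at -0.68, Ebp at -0.33, Dhcr7 at -0.24 and Hsd17b7 at -0.10. Cyp51 had its other probe sets at -1.06 and -2.02.

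HF+P mice were spread over a wider range than HF mice in this pathway. The mean over the 17 members ran from -0.60 to 0.43 in HF. In HF+P it was -1.02, -1.83, -1.67, 0.75, 0.06 and -0.77 in mice 1, 2, 3, 4, 7 and 8, so mouse 4 was the highest of all 12. Cyp51 shows it: HF+P mice 2 and 3 were at -2.28 and -2.06 and mouse 4 at 1.29, and without mouse 4 the standardized difference of Cyp51 was -2.04. With each mouse left out in turn it ran from -2.04 to -0.71. The list's median was -1.09 without that mouse, and between -0.88 and -0.47 when each of the others was left out in turn.

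**Figure D3:**
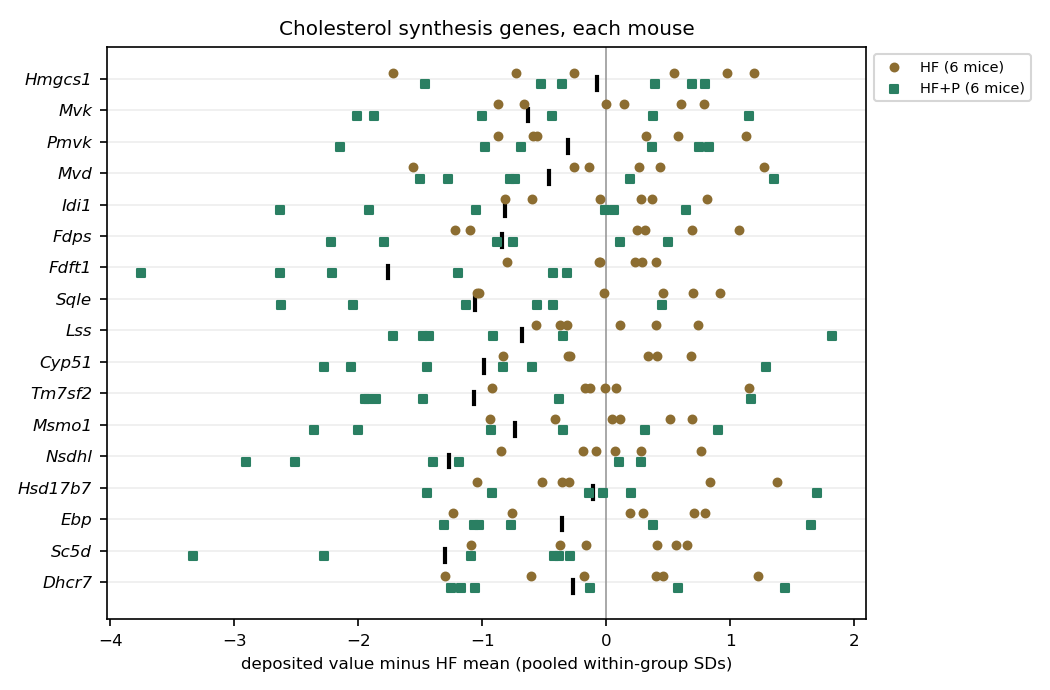
The 17 measured genes of cholesterol synthesis in pathway order, each mouse in pooled SDs from the HF mean; circles are HF mice, squares HF+P mice and vertical bars HF+P means. The HF+P means lie left of 0 in every gene, from Fdft1 with the lowest standardized difference (-1.62) to Hmgcs1 at -0.07, and the groups overlap in every one.

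Other sterol genes did not lie on 1 side: of 15 measured, 9 were higher and 6 lower, with a median of 0.26. Stard4, a sterol transfer protein, was at -1.24 (-2.39 to -0.04), with 4 HF+P mice below every HF mouse, and at 0.79 after quantile normalisation. The other probe sets of Stard4 were at -1.59 and -1.86. Insig1, which holds the SREBP complex back and is itself an SREBP target, was at -0.24 with HF+P mice spread from -2.44 to 1.23 around an HF range of -0.48 to 0.73. Its relative Insig2 was at 0.84. Srebf1, the factor of fatty acid synthesis, was at -1.06 (-2.18 to 0.10).

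Fatty acid and triglyceride synthesis was even, with 12 of 26 members higher and a median of -0.07. Fasn, fatty acid synthase, was at 0.20 and Scd1, the stearoyl-CoA desaturase, at -0.36. Elovl3, an elongase, was at 1.50, with HF+P mice from 0.64 to 3.23 and HF mice from -1.75 to 1.32. Dgat1, the last step of triglyceride synthesis, was at 1.24 but at -0.19 after quantile normalisation, and Gpam, the first, at -1.12.

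Of 28 genes that PPAR-alpha drives or that oxidise fatty acids, 15 were higher, with a median of 0.18, 3 members having an unadjusted p below 0.05 on the high side and 2 on the low side (limma), beside 4.17% and 2.86% of all genes. Cyp4a14, the fatty acid omega-hydroxylase, ran from -1.57 to 1.13 in HF (median 0.07) and from 0.64 to 2.68 in HF+P (median 2.02), at 1.68 (0.38 to 2.92; adjusted p = 0.539). Pdk4, which spares glucose by blocking pyruvate dehydrogenase, was at 1.29, with HF+P mouse 2 at 3.76. In HF against LF these genes were at -2.03 and -2.38.

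Decr1, a mitochondrial reductase of unsaturated fatty acids, was at -1.69 (-2.94 to -0.39) and at -0.94 after median centring. Its value in HF against LF was 0.08. Cpt1a, the gate of mitochondrial fatty acid entry, was at -1.16 (-2.30 to 0.02) in its brightest probe set. Its other probe sets were at -0.38 and 0.44, so the probe sets disagree. Its HF+P mice lay from -2.30 to -0.24 and its HF mice from -1.71 to 1.38, so the groups overlapped. The fasting hormone Fgf21 was at 0.21 (-0.85 to 1.25).

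Genes of lipid droplets and fatty acid uptake had 12 of 29 members higher and a median of -0.07. Plin5, the droplet coat that tethers mitochondria, was at 1.36 (0.14 to 2.54), with 4 HF+P mice above every HF mouse. Acsl5, an acyl-CoA synthetase, was at -1.56, but at -0.21 after median centring. Its value in HF against LF was -1.88, on the same side. The fatty acid transporter Cd36 was at 0.12 and Pparg at -0.41.

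Apolipoproteins and lipoprotein assembly had 8 of 19 higher and a median of -0.17, which moved to 0.50 with 14 higher after median centring. Vldlr, the VLDL receptor, was at 1.30 (0.09 to 2.46), with its other 5 probe sets between 0.12 and 1.32. Apoa4 was at -1.25 (-2.41 to -0.05), with 5 HF+P mice below every HF mouse; in HF against LF it was at -3.23. Bile acid genes had 11 of 26 higher. Cyp7a1, the rate-limiting enzyme of bile acid synthesis, was at -0.26 (-1.30 to 0.80), while Abcb4, the canalicular phospholipid pump, was at 1.43 and Abcc3, a basolateral exporter, at 1.25. The value of Abcc3 in HF against LF was 0.97, on the same side. Akr1c6 was at -1.17, and at -0.54 after median centring.

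Gluconeogenesis and the fasting response lay on the high side, with 22 of 25 members higher in HF+P against 51.5% of all genes, and 0 called. The median was 0.51, 0.59 after median centring and 0.43 after quantile normalisation, and 0.40 to 0.75 with each mouse left out in turn. G6pc, which releases glucose from glucose-6-phosphate, ran from -0.85 through -0.24 to 1.27 in HF and from 0.45 through 1.26 to 2.97 in HF+P, so the groups overlapped, at 1.45 (0.20 to 2.64; limma, adjusted p = 0.612). Pck1, phosphoenolpyruvate carboxykinase, was at 0.88 (-0.25 to 1.97), with its other probe sets at 0.93 and 0.11, and Tat, tyrosine aminotransferase, at 1.07 (-0.09 to 2.19). The list's median in HF against LF was -0.74, and G6pc was at -3.10 there. Glycolysis, fructose and glycogen genes had a median of -0.01.

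For amino acid breakdown and the urea cycle 20 of 28 genes were higher, with a median of 0.39. Its size moved with single mice: the median was 0.18 without HF+P mouse 4, 0.21 without HF mouse 3 and 0.81 without HF+P mouse 3. Cbs, cystathionine beta-synthase, was at 1.41 (0.18 to 2.60) and Hgd, homogentisate dioxygenase, at 1.25 (0.05 to 2.40). HF+P mouse 3 had the lowest mean over this list and HF+P mouse 4 the highest, 1.37.

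Mitochondrial and protein turnover genes also lay on the high side. Oxidative phosphorylation genes were higher in 27 of 33 (median 0.38), ribosomal proteins in 16 of 16 (0.52) and proteasome subunits in 24 of 29 (0.44), with 0 called. Median centring gave 0.71, 0.62 and 0.63, beside 0.33 for all genes, and only 5, 3 and 14 members could be tested after quantile normalisation. The medians also moved with single mice. That of oxidative phosphorylation was 0.25 without HF mouse 3, with 10 of 33 lower, and 0.71 without HF+P mouse 3. For ribosomal proteins it was 0.33 without HF+P mouse 8 and 0.94 without HF mouse 8. The proteasome median was 0.13 without HF+P mouse 1, whose mean over that list was 1.82, and 0.70 without HF+P mouse 3. Ndufa9, a subunit of complex I, was at 1.26 (0.06 to 2.41), with HF+P mice from -0.31 to 2.38 and HF mice from -0.86 to 1.42. Rps20, higher in 4 of 4 probe sets, was at 0.77, with its other probe sets at 1.34, 2.15 and 0.53. Heat shock proteins had 11 of 14 higher (0.37), with HF+P mice 1 and 2 at list means of 1.39 and 1.32 and mouse 7 at -0.94. Their median was 0.13, 0.14 and 0.56 without mouse 1, 2 or 7 of that group, and 0.21 without HF mouse 8. Genes of the unfolded protein response were at -0.05 and those of the integrated stress response at 0.18.

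Xenobiotic genes went both ways. P450 and related genes were higher in 15 of 26, with a median of 0.24. Cyp2c37 was at 1.67 (0.38 to 2.92) and Cyp3a13 at 1.49 (0.24 to 2.69), while Cyp2b10, the marker gene of the receptor CAR, was at -1.42 with 2 of its 3 probe sets higher and a value of 0.66 after quantile normalisation. Cyp3a11, the main PXR target, was at 0.62 (-0.47 to 1.69), with HF+P mouse 3 at -1.80 and the other HF+P mice between 0.24 and 1.80. With each mouse left out in turn it ran from 0.42 to 1.97, the highest being without HF+P mouse 3. Against LF, it was at -9.23 in HF.

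Of 32 NRF2 targets and glutathione genes 18 were higher, with a median of 0.08. On the high side 6 of them had an unadjusted p below 0.05 (limma), beside 4.17% of all genes, and 0 passed. They included Ephx1, microsomal epoxide hydrolase, at 1.35 (0.13 to 2.52), Gstp1 at 1.33 and Gstm1, higher in 4 of 4 probe sets, at 1.26. Conjugating enzymes and aldehyde dehydrogenases were lower in 13 of 19 (median -0.21, and 0.06 after median centring). Aldh1b1 was at -1.62 (-2.85 to -0.33) and Aldh1a7 at -1.40, each with 4 HF+P mice below every HF mouse.

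Pericentral genes, those of hepatocytes around the central vein, were lower in 14 of 20, with a median of -0.37 (0.04 after quantile normalisation, -0.24 without HF mouse 3 and -0.57 without HF mouse 8). Lect2, a secreted hepatokine, ran from -1.19 to 1.24 in HF and from -3.69 to -1.17 in HF+P, with 5 HF+P mice below every HF mouse, at -2.11 (-3.47 to -0.70; limma, adjusted p = 0.464). Rhbg, an ammonia transporter, was at -1.69 and Gulo, which makes vitamin C, at -1.39. These 3 genes were at 1.99, 1.65 and 2.97 in HF against LF. Periportal genes were higher in 13 of 18, with a median of 0.58 (0.04 after quantile normalisation). Only 7 members of this list and 7 of the pericentral list could be tested after quantile normalisation. Of the periportal genes 2 had an unadjusted p below 0.05 on the high side and 3 on the low side (limma), beside 4.17% and 2.86% of all genes. Igf1 at -2.24 and Aldh1b1 at -1.62 were among those 3.

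Of the secreted liver hormones 8 of 20 were higher. Enho, which encodes adropin, was at 0.33, and Hgf, hepatocyte growth factor, at -1.19, with its other probe sets at -0.53 and -0.03. Lepr, the leptin receptor, ran from -0.74 to 0.66 in HF and from -0.50 to 3.20 in HF+P, where mouse 1 was the lowest and the other 5 lay above every HF mouse. It was at 1.82 (0.48 to 3.10; limma, adjusted p = 0.512), higher in 3 of 4 probe sets. With each mouse left out in turn it ran from 1.63 to 4.10, the highest being without that mouse. In HF against LF it was at -2.54 (-4.02 to -0.99).

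Clock genes had a median of -0.06. Clock and Arntl, the activating pair, were at 1.08 and 0.94 and the repressor Per3, lower in 6 of 6 probe sets, at -0.90. Male-biased and female-biased liver genes were both at -0.01. Under 1 or both scalings 16 of the 40 list medians changed sign, those of clock genes, bile acid genes, fatty acid synthesis, lipid droplets and neutrophil markers among them. A further 2, NRF2 targets and pancreatic acinar markers, went to 0 (within 1e-06) after quantile normalisation. The medians of cholesterol synthesis, gluconeogenesis, oxidative phosphorylation, interferon response and macrophage markers kept their sign against 0 under both. Both scalings moved the midpoint of all genes up, to 0.33 and 0.19, so a positive median keeps its sign more readily than a negative one. For gluconeogenesis the values beside these midpoints were 0.59 and 0.43, and for oxidative phosphorylation 0.71 and 0.33. Only 5 of 33 oxidative phosphorylation genes could be tested after quantile normalisation, 3 higher and 2 lower.

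**Figure D4:**
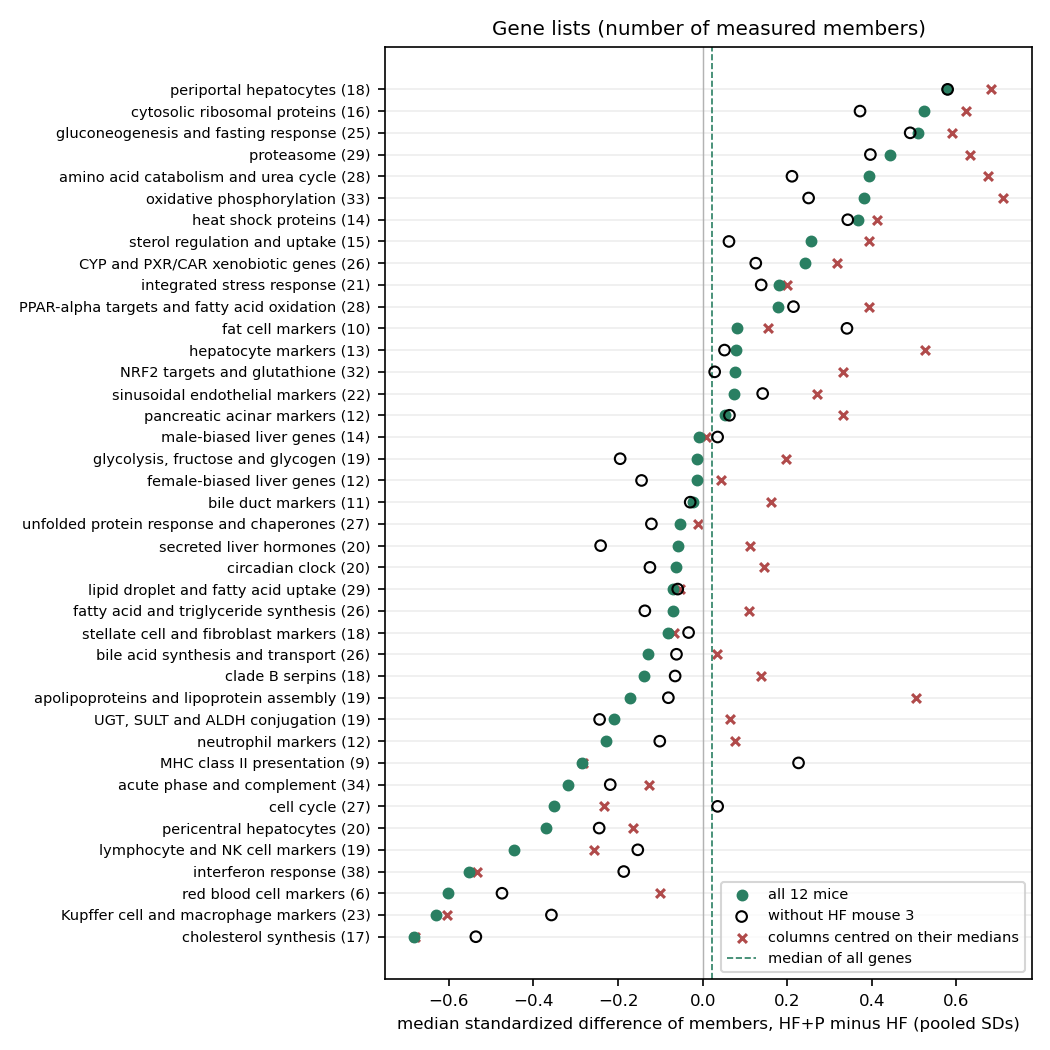
Median standardized difference of the members of each of the 40 gene lists, HF+P minus HF, in pooled SDs, with the number of measured members; filled points use all 12 mice, open points leave out HF mouse 3, crosses use median-centred columns and the dashed line is the median of all genes. Cholesterol synthesis is lowest at -0.68, periportal genes are highest at 0.58, and the open point of MHC class II lies on the other side of 0 from its filled point.

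Interferon-response genes were lower in HF+P in 35 of 38 measured members, with a median of -0.55 and 0 called, and HF mouse 3 stood apart in them. Its mean over the list was 2.23, while the other HF mice lay between -0.93 and -0.09 and the HF+P mice between -1.24 and 0.16. Without HF mouse 3 the median was -0.19 and 26 of 38 were lower. Cxcl9, an interferon-gamma-induced chemokine, was at 2.74 in HF mouse 3 and between -0.87 and -0.25 in the other HF mice, against -1.23 to -0.23 in HF+P. The guanylate-binding protein Gbp6 was at 2.47 in that mouse and between -0.89 and 0.02 in the other HF mice. Oas1a, an antiviral RNA sensor, was at -0.96 (-2.06 to 0.18). Isg20 was at -1.70, but at -0.39 after median centring.

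MHC class II genes were lower in 9 of 9 with all mice (median -0.28) and in 2 of 9 without HF mouse 3 (median 0.23). H2-DMa, a peptide-loading chaperone, was at 2.62 in that mouse and between -1.30 and 0.13 in HF+P. In HF against LF the medians of interferon and MHC class II genes were 1.09 and 0.94.

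Markers of Kupffer cells and macrophages were lower in 21 of 23, with a median of -0.63, and in 18 of 23 without HF mouse 3, with a median of -0.36. The mean over the list ran from -0.92 to 1.62 in HF, the highest being HF mouse 3, and from -1.35 to 0.24 in HF+P. Mpeg1, a macrophage pore-forming protein, was at -0.86 and the scavenger receptor Marco at -0.89, both with overlapping groups. Markers of lymphocytes and NK cells were lower in 17 of 19 (median -0.45) and without HF mouse 3 in 15 of 19 (-0.15); their median was -0.26 without HF+P mouse 7. In whole liver, fewer cells of a type and less RNA per cell cannot be told apart.

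Cd3e, a chain of the T cell receptor complex, was the member of these lists whose groups did not overlap. It ran from -0.95 to 2.54 in HF, HF mouse 3 being the highest, and from -3.11 to -1.71 in HF+P, at -2.15 (-3.51 to -0.72; limma, adjusted p = 0.486). Without HF mouse 3 it was at -3.31, after median centring at -0.67, and after quantile normalisation at 0.00. With each mouse left out in turn it ran from -3.31 to -1.95.

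Acute phase and complement genes were lower in 24 of 34, with a median of -0.32, which was -0.22 without HF mouse 3 and -0.54 without HF+P mouse 3. Orm1, orosomucoid, ran from -1.36 through 0.36 to 1.05 in HF and from -3.39 through -2.16 to -0.52 in HF+P, with 5 HF+P mice below every HF mouse, at -1.93 (-3.23 to -0.56; limma, adjusted p = 0.491). Apcs, serum amyloid P, was at -1.55 (-2.77 to -0.29). Orm1 and Apcs were at 0.11 and 0.20 in HF against LF. Saa1, serum amyloid A, was at -1.17 (-2.31 to 0.01) and at -1.64 without HF mouse 3, which stood at 2.66. With each mouse left out in turn Saa1 ran from -1.64 to -1.02. What part HF mouse 3 has in the other immune values was not tested beyond leaving it out.

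**Figure D5:**
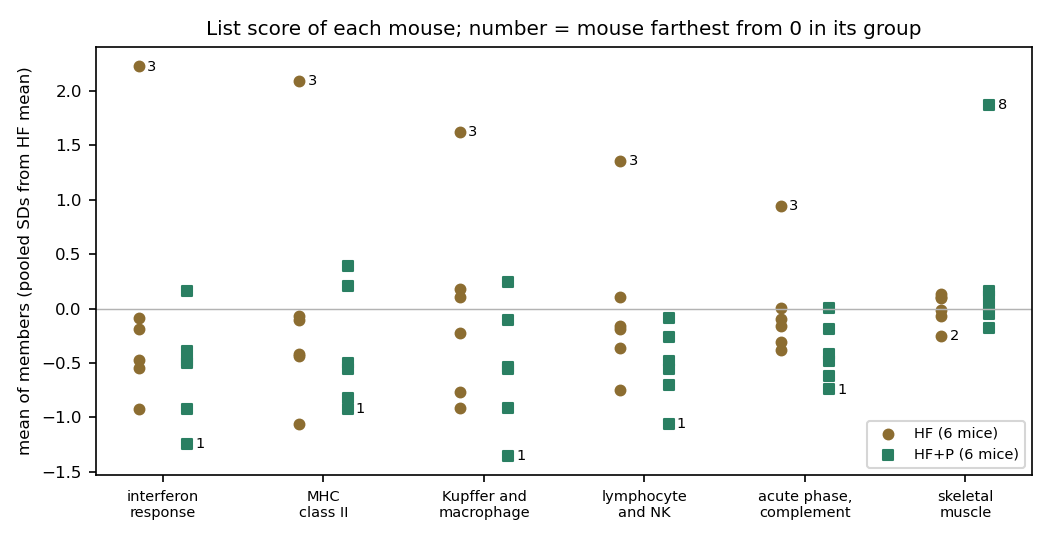
Mean over the members of 6 lists in each mouse, in pooled SDs from the HF mean; circles are HF mice and squares HF+P mice, and the number names the mouse farthest from 0 in its group. HF mouse 3 is the highest in the 5 immune lists, at 2.23 for interferon response, and HF+P mouse 8 is the highest for skeletal muscle genes, at 1.87.

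Markers of other cell types had 0 members called. Sinusoidal endothelial markers were higher in 12 of 22 (median 0.07), among them Tek, the angiopoietin receptor, at 1.60 (0.32 to 2.83) and Oit3 at 1.20, of which the latter was at 0.08 after quantile normalisation. Medians were -0.08 for stellate cells, -0.02 for bile duct, and 0.08 for hepatocytes. Neutrophil markers were at -0.23 (0.08 after median centring) and the 6 red blood cell genes at -0.60, which was -0.10 after median centring and -0.09 after quantile normalisation.

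Skeletal muscle genes, a list added after the values were seen, stood apart in HF+P mouse 8. Its mean over 26 genes was 1.87 while the other HF+P mice lay between -0.18 and 0.16, and Acta1, skeletal alpha-actin, was at 3.35 there and between -0.23 and 0.10 in the other 11 mice. Fat cell markers were also highest in this mouse, at 1.16. Without it the muscle list's median went from 0.34 to -0.19, while those of cholesterol synthesis (-0.71) and interferon response (-0.54) moved little. HF+P mouse 8 and HF mouse 3 were the highest or lowest of the 12 mice in 23.8% and 23.2% of probe sets, against 13.3% to 20.4% in the others.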

How the data were processed

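Liver RNA of each mouse was extracted with Trizol and hybridised as biotinylated RNA to an Affymetrix 3' array, per the labels' protocols. The authors deposited values in the range of log2 intensities, handled here as log2; R 2.7.2 was used per the submitters' processing notes, while the array summary, the normalisation step and the base of the logarithm are something the sources used here do not give. The HF arrays were processed once with LF and once with HF+P, per the labels, and the sets were never mixed.

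The platform annotation named the probe sets: 34958 had 1 symbol, 932 several and 9211 none, and 34754 matched a RefSeq gene of GRCm38.p6. A gene is represented by its probe set with the highest mean over the 12 columns. Limma 3.58.1 (lmFit and eBayes, R 4.3.3; prior degrees of freedom 0.734) compared 6 HF+P with 6 HF mice without covariates, two-sided, with Benjamini-Hochberg adjustment over 34958 probe sets and a threshold of 0.05. Intervals came from the noncentral t distribution with 10 degrees of freedom (scipy 1.17.1). The number of arrays limits the precision. The fit was tested on simulated data with independent normal noise for each probe set and planted shifts. That simulation had no correlation between genes and no mouse that stands apart. It cannot show how the fit behaves with such features.

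The genes, the 40 lists (825 of 936 entries measured) and the tests were chosen with earlier results of these data known. Named are called genes, the 8 highest and 8 lowest standardized differences among genes of widest spread (SD over 9.16e-06), all measured cholesterol synthesis genes, members with the lowest p in each other list, and metabolic genes listed by name. Cxcl9, Gbp6, H2-DMa, Mpeg1, Saa1, Acta1, Slc39a14 and Oas1a were singled out after their values were seen where this rule does not name them. Leaving out HF mouse 3 for lists and the skeletal muscle list were added after seeing the data. Other settings were quantile normalisation, median centring, filters, variance options, array weights, an exact permutation test and leaving out each mouse. The main fit did not pair mice by the numbers shared between the groups, since the labels state no pairing.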

Additional observations from a re-analysis of the deposited data

Results flagged for a closer look

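In 20 of 278 groups of 6 mice, 1 mouse stood apart by Dixon's ratio, the gap to its nearest neighbour over the group's range, past its 95% critical value for 6 samples; chance gives about 1 in 20 groups. Cxcl9, Gbp6, H2-DMa, Mpeg1, Saa1, Acta1 and the muscle list were taken up after their values were seen, so this count cannot be set against that rate. HF mouse 3 was the high value in 9 of them: Cxcl9 (0.830), Gbp6 (0.729), H2-DMa (0.747), Saa1 (0.759), Mpeg1 (0.706), Cd3e (0.729), and the means of the interferon (0.734), MHC class II (0.687) and acute phase (0.708) lists. These genes share that mouse and are not separate observations. HF mouse 5 was high for Apoa4 (0.752) and the apolipoprotein list (0.716) and low for male-biased genes (0.702).

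HF+P mouse 8 was high for Acta1 (0.937) and the skeletal muscle list (0.833). HF+P mouse 1 was high for Cd36 (0.798), with a value of 1.91 against -0.50 to -0.01 in the other HF+P mice. HF+P mouse 2 was high for Hgf (0.734) and for the endothelial list (0.792), and HF+P mouse 3 was low for Cyp3a13 (0.658) and high for male-biased genes (0.653). HF+P mouse 7 was high for neutrophil markers (0.675), at 0.49.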

How the results depend on the processing

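The count of called probe sets, 1, went to 0 after quantile normalisation (1305 of 31794 testable probe sets with an unadjusted p below 0.05 in limma), and to 0 without the named probe sets whose mean lies under their median of 6.99, which leaves out Serpinb6b at 6.975 (1403 of 17479). The exact permutation test per probe set gave 0 as well (2456 of 34958), but could not have called a single probe set: its smallest p is 0.00216, which 1514 probe sets would have to reach and 129 did, so it says nothing about Serpinb6b (5.96, adjusted p = 0.567). The limma count stayed at 1 with median centring, 1 probe set per gene, only probe sets of wider spread than the median, trend and robust variance, array weights and a threshold of 0.10, and ran from 1 to 2 with each mouse left out, reaching 2 without HF mouse 2 (Akip1 added) or HF+P mouse 8 (Slc39a14 added). Serpinb6b was called in each of those leave-one-out fits (5.58 to 7.33; adjusted p 0.00367 to 0.0449). It was not called after quantile normalisation (4.48, adjusted p = 0.0977) or with the mouse number as a block (5.83, adjusted p = 0.276). The cause of these 2 losses was not tested.

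The block over the 5 shared numbers called 1 probe set, of 2610507B11Rik (-15.1, limma adjusted p = 0.0317; -1.33 without the block). Deviations of same-numbered mice correlated at 0.04 to 0.22 over probe sets, and 2 of 5 correlated best with their own number. With 5 pairs these values cannot decide whether same-numbered mice share more than the number, and the labels state no pairing.

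Of 40 lists, 22 kept the sign of their median under both scalings, 16 changed it under at least 1, 2 went to 0 (within 1e-06), and 20 kept it in every leave-one-out fit. These signs were taken against 0, while both scalings moved the midpoint of all genes up. For uncalled genes of the text, 52 of 1456 values under other settings moved by over 1 pooled SD, and 1 became a call (Akip1 without HF mouse 2). That count covers the probe set that stands for each gene; the Slc39a14 probe set called without HF+P mouse 8 is another one of its gene. The deposited difference was smaller in size than the shift of the column medians between the groups (-1.27e-06) in 14137 probe sets (40.4%). Median centring raises every difference by the size of that shift. The negative ones among these probe sets therefore change sign, and the positive ones keep it. With 1 probe set per gene, the share higher in HF+P went from 51.5% to 72.4%.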
